A study of Mus musculus with 2 samples.

Results

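The mitochondrial carriers of adenine nucleotides and phosphate and the porins of the outer mitochondrial membrane were examined in mouse gastrocnemius, the main calf muscle. They are 6 genes, taken by their symbols: Slc25a4, Slc25a5, Slc25a3, Vdac1, Vdac2 and Vdac3. All 6 had reads in both libraries, where 12755 annotated genes (replicate 1) and 13485 annotated genes (replicate 2) had reads. They held 13203 reads in 98 transcript models in replicate 1, which was 1.19% of the reads of annotated genes, and 19141 reads in 112 models in replicate 2, which was 1.36%.

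The study consists of a single group with 2 libraries of long-read RNA sequencing, an assay in which a read aims to cover a whole transcript molecule. The muscles came from male B6CASTF1/J mice, the F1 hybrid of the C57BL/6J and CAST/EiJ strains, at an age of 2 months, and 2 µg of RNA went into each library. The labels number the males differently (03 for replicate 1, 04 for replicate 2), although both samples carry the same donor identifier. There is no treatment, no second tissue and no control, so the comparisons below are between genes, between transcript forms of a gene and between the libraries, and they rest on no p-value. How far the libraries lie apart may be technical in part.

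Mitochondria export the ATP they make through a pair of membranes. In the inner membrane, the adenine nucleotide carriers exchange matrix ATP for cytosolic ADP, and the phosphate carrier brings in the phosphate that ATP synthase joins to that ADP. The porins, or voltage-dependent anion channels, are barrels in the outer membrane through which nucleotides, phosphate and other metabolites pass. Slc25a4 (carrier ANT1) is known as the form of heart and skeletal muscle, Slc25a5 (ANT2) as the form of growing and many other cells, and Slc25a3 is known to make a heart and muscle protein and a general protein from alternative exons.

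The libraries held 1107128 (replicate 1) and 1402875 (replicate 2) reads of annotated genes, and levels are given as counts per 1000000 of those reads (CPM). For a gene with 0 reads, the limit is 3 reads, which is 2.71 CPM (replicate 1) or 2.14 CPM (replicate 2). Without molecular identifiers, all intervals and such limits cover counting error alone. The muscle markers Acta1, Ckm, Myh4, Mylpf and Tnnt3 were present in both libraries, summing to 165499 and 145942 CPM, and macrophage and adipocyte markers stayed under 1 CPM in sum. Slow fibre markers differed between the libraries: 8 of 8 were higher in replicate 2, with a summed level of 2886 CPM in replicate 1 and 8837 CPM in replicate 2. The part of that difference in any value below was not tested. In bulk tissue, fewer fibres of a type and less RNA per fibre cannot be told apart.

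Transcript sequences of the alternative exons of Slc25a3 and of the end of exon 3 of Vdac3 are shown first, because the transcript forms of these genes turn on them. They were read from the GENCODE M21 transcripts of mouse build mm10, the annotation that the files use. Both Slc25a3 exons lie on the minus strand of chromosome 10 and are shown 5′ to 3′ with capitals for the bases at which they differ in a global alignment. Exon A is 125 nt long, at chr10:91122207-91122331, and belongs to the annotated transcript Slc25a3-206. Exon B is 122 nt long, at chr10:91121922-91122043, and belongs to Slc25a3-201 and Slc25a3-203.
Slc25a3 exon A: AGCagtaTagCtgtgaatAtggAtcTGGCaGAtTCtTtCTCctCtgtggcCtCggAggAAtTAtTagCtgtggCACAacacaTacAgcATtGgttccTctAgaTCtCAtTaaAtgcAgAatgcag
Slc25a3 exon B: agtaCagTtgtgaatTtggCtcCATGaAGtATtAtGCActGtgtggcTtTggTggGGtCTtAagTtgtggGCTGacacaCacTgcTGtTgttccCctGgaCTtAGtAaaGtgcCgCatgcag
Of 125 aligned columns, 77 (61.6%) were identical, 45 were mismatches and 3 were gaps at the start of exon B. The longest run without a difference was 7 bases, so that a read through either exon meets many bases that tell them apart.

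Vdac3 lies on the minus strand of chromosome 8. The next pair of sequences joins the end of exon 3 to the first 24 nt of exon 4, starting 24 nt before the end of exon 3 in Vdac3-201, with capitals for the bases that only Vdac3-202 holds. Exon 3 spans chr8:22587553-22587602 (50 nt) in Vdac3-201 and chr8:22587550-22587602 (53 nt) in Vdac3-202.
Vdac3-201: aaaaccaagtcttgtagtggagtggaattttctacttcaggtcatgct
Vdac3-202: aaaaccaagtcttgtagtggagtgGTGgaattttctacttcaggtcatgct
The 3 added bases follow 117 coding nt, or 39 codons, so they add a codon in frame. The coding sequence is 849 nt in Vdac3-201 and 852 nt in Vdac3-202.

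Slc25a4 was by far the most read of the 6 genes. Its level was 9775 CPM in replicate 1 and 11262 CPM in replicate 2, or 10518 ± 1052 CPM (SD, n = 2), from 10822 and 15799 reads. Slc25a4 (ENSMUSG00000031633.4) lies at chr8:46206797-46211284, minus strand, and ranked 10 among annotated genes by mean CPM, between the fast myosin light chain gene Myl1 and the fast alpha-actinin gene Actn3. Both libraries placed it near the top, at rank 11 and rank 8.

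Slc25a5, the other adenine nucleotide carrier among the 6 genes, was the least read member and the one that differed most between the libraries. It lies at chrX:36795651-36798807, plus strand (ENSMUSG00000016319.3). Its level was 129.2 CPM in replicate 1 and 242.4 CPM in replicate 2, or 185.8 ± 80.0 CPM (SD, n = 2), from 143 and 340 reads, and it ranked 585 between Psmc5 and Fxr1. Of the reads of both carriers, Slc25a5 held 1.30% of reads in replicate 1 (95% Wilson interval 1.11 to 1.53) and 2.11% in replicate 2 (1.90 to 2.34). The level of Slc25a4 was 75.4-fold that of Slc25a5 in replicate 1 and 46.4-fold in replicate 2. Per kb of main transcript (1925 nt for Slc25a4, 1240 nt for Slc25a5), it was 48.6-fold in replicate 1 and 29.9-fold in replicate 2. Their coding sequences have the same length, 894 nt, and 692 of 894 positions (77.4%) are identical, with a longest identical run of 20 nt. The inner exons match in length too: exon 2 has 487 nt and exon 3 has 141 nt in both genes.

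Slc25a3 lay between the carriers. It encodes the phosphate carrier and lies at chr10:91116574-91124059, minus strand (ENSMUSG00000061904.12). Its level was 690.1 CPM in replicate 1 and 831.9 CPM in replicate 2, or 761.0 ± 100.3 CPM (SD, n = 2), from 764 and 1167 reads. It ranked 113, between Usmg5 and Atp5k, which both encode small proteins of the ATP synthase. The level of Slc25a4 was 14.2-fold that of Slc25a3 in replicate 1 and 13.5-fold in replicate 2. Per kb, it was 9.86-fold in replicate 1 and 9.43-fold in replicate 2.

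The porins showed little spread between the libraries, and Vdac3 had the highest level of the 3. Vdac3 (ENSMUSG00000008892.12, chr8:22577075-22593813, minus strand) stood at 605.2 CPM in replicate 1 and 594.5 CPM in replicate 2, from 670 and 834 reads. Vdac1 (ENSMUSG00000020402.11, chr11:52360860-52389397, plus strand), the form best known for binding hexokinase, stood at 469.7 and 459.8 CPM, from 520 and 645 reads. Vdac2 (ENSMUSG00000021771.14, chr14:21825238-21845879, plus strand), the form known to hold the cell death protein BAK at the membrane, stood at 256.5 and 253.8 CPM, from 284 and 356 reads. Ranked by mean CPM, Vdac3 was at 148 (between Idh2 and Ndufc1), Vdac1 at 203 (between Hspb6 and Myl3) and Vdac2 at 404 (between Xirp2 and Dcaf8).

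The shares of the porin reads were nearly the same in both libraries. Vdac3 held 45.5% (42.9 to 48.0) in replicate 1 and 45.4% (43.2 to 47.7) in replicate 2, Vdac1 held 35.3% and 35.1%, and Vdac2 held 19.3% and 19.4%. Divided by the length of each main transcript, the share of Vdac3 was 53.9% in both libraries. The main transcript of Vdac3 is Vdac3-202 (1423 nt), the annotated chain nearest to its leading model, and had no reads itself. The level of Vdac3 was 1.29-fold that of Vdac1 in both libraries, and the level of Vdac1 was 1.83-fold and 1.81-fold that of Vdac2. Per kb, the level of Vdac3 was 1.83-fold that of Vdac1 in replicate 1 and 1.84-fold in replicate 2, and the level of Vdac1 was 1.77-fold and 1.75-fold that of Vdac2. A ratio is said here to exceed the spread where its log2 value has 1 sign in both libraries and a mean of over 2 SD, and these ratios did so. The order holds only while unannotated models are counted: with annotated transcripts alone, Vdac3 held 2.65% and 3.81% of porin reads, fewer than Vdac1 and Vdac2, since its leading model carries the unannotated splice site described below.

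**Figure D1:**
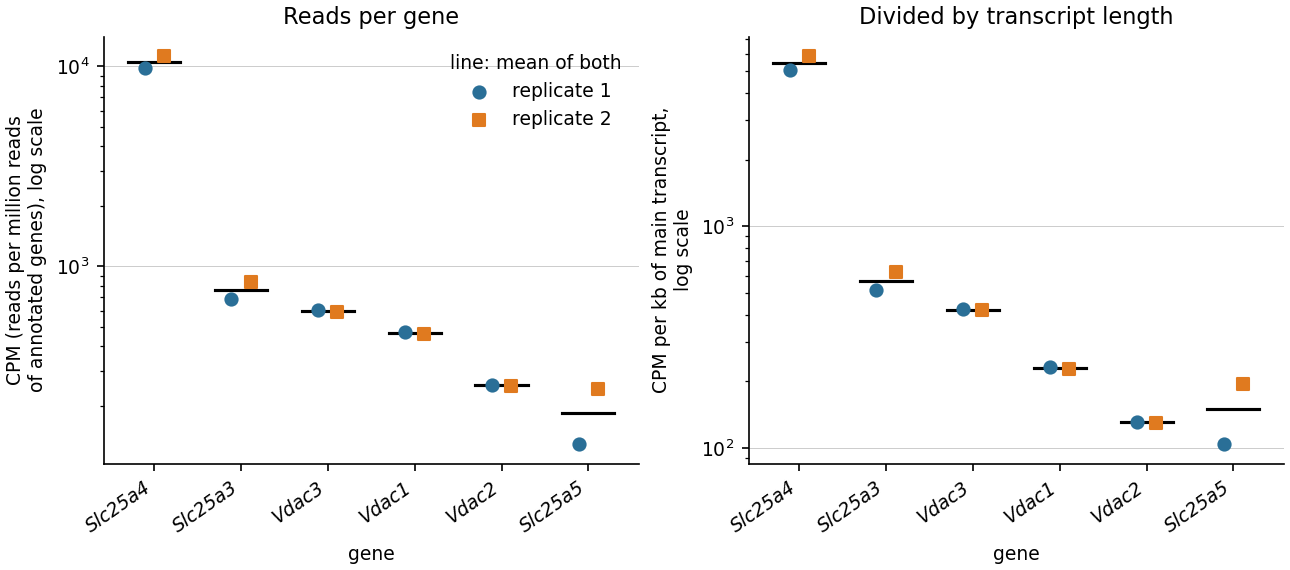
Level of each gene in CPM (left) and in CPM per kb of its main transcript (right), both on a log axis, with a circle for replicate 1, a square for replicate 2 and a line for the mean of the 2 libraries. Slc25a4 lies far above the rest at 10518 CPM, the porins nearly coincide between libraries, and Slc25a5 is the only gene whose points lie far apart.

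Per kb of main transcript, the mean levels ran from Slc25a4 (5464 CPM per kb) through Slc25a3 (567.5), Vdac3 (421.5), Vdac1 (229.8) and Slc25a5 (149.8) to Vdac2 (130.6). The place of Slc25a5 above Vdac2 comes from the division by length. In CPM it lay below Vdac2 in both libraries, at 129.2 against 256.5 in replicate 1 and 242.4 against 253.8 in replicate 2. The steps from Slc25a4 to Slc25a3, from Slc25a3 to Vdac3 and from Vdac3 to Vdac1 exceeded the spread. The step from Slc25a3 to Vdac3 did so only just. Its log2 ratio was 0.28 in replicate 1 and 0.57 in replicate 2, with a mean of 0.42 and an SD of 0.21. That step was not scored in CPM or with spliced models alone. The steps on either side of Slc25a5 did not exceed the spread. The level of Slc25a5 was 0.795-fold that of Vdac2 in replicate 1 and 1.51-fold in replicate 2. With spliced models alone, Slc25a5 fell below Vdac2 in both libraries, at 0.383-fold and 0.477-fold.

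The 3 porins share an exon plan. Vdac1, Vdac2 and Vdac3 each hold inner exons of 153, 53, 228, 151 and 58 nt in that order, and the exon before them has 50 nt in Vdac1, in Vdac2 and in Vdac3-201. Between 66.0% (Vdac1 and Vdac3) and 68.6% (Vdac2 and Vdac3) of aligned coding positions are identical, and no identical run is longer than 17 nt.

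The phosphate carrier transcripts carried exon A almost exclusively. Of the reads whose models reached the common exons on both sides, 720 of 730 held exon A alone in replicate 1, or 98.6% (95% Wilson interval 97.5 to 99.3). In replicate 2 the count was 1082 of 1107, or 97.7% (96.7 to 98.5). Exon B alone was held by 4 reads (0.548%, 0.213 to 1.40) and 11 reads (0.994%, 0.556 to 1.77). Exon A is the exon of the heart and muscle form, and the intervals for exon B overlap between the libraries.

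No read skipped both exons or held both with their annotated ends, and a count of 0 allows a share of up to 0.411% in replicate 1 and 0.271% in replicate 2. The other 6 and 14 reads overlapped exon A or B with changed ends or with intron sequence kept around it, and 3 and 4 of them overlapped both exons. The exons are 163 nt apart. Each leaves 2 nt over after whole codons, and the coding sequence is 1074 nt with exon A (Slc25a3-206) and 1071 nt with exon B (Slc25a3-201), so both read on in frame. All the exon B reads were in Slc25a3-201, and Slc25a3-203 had none.

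Slc25a3-206 held 668 reads (87.4% of the gene's reads) in replicate 1 and 988 (84.7%) in replicate 2. A chain lacking only the first intron of Slc25a3-206 held 40 (5.24%) and 81 (6.94%) reads. Slc25a3-204, an annotated form of 5 exons without a coding sequence, held 10 (1.31%) and 12 (1.03%). Its introns are those nearest the 3′ end in both Slc25a3-206 and Slc25a3-201. By chain these reads therefore cannot be told apart from molecules of either transcript that lack their 5′ part.

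In the deposited models of Vdac3, exon 3 mostly ended at a position that no annotated transcript has. Among the reads that spliced there, 632 of 652 (96.9%, 95.3 to 98.0) in replicate 1 and 751 of 791 (94.9%, 93.2 to 96.3) in replicate 2 had an exon of 54 nt, starting on the genome at chr8:22587549. That is 4 nt longer than in Vdac3-201 and 1 nt longer than in Vdac3-202. The annotated 50-nt exon was used by 20 reads (3.07%) and 38 reads (4.80%). The annotated 53-nt exon was used by none, which allows up to 0.460% and 0.379%.

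A coding sequence with the 54-nt exon would count 853 nt, which is not a multiple of 3. As background, Vdac3 is known in muscle, heart and brain to carry a tiny extra exon between exons 3 and 4 that adds a methionine codon, and neither annotated sequence above shows it. The models give exon positions and no read bases, so the letters that the reads held at this junction were not tested, nor was whether the 54-nt exon is where the molecules were spliced or where the alignment placed them. The parental allele of the reads was not tested either; they come from a hybrid of 2 strains and were set against a single reference genome.

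**Figure D2:**
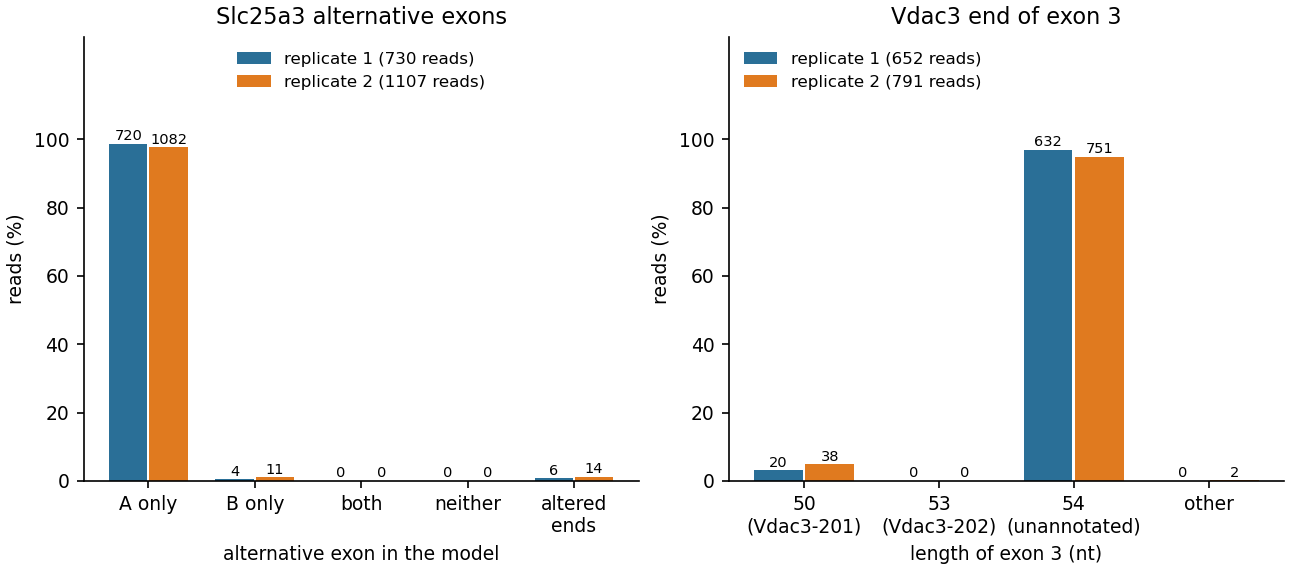
Left, reads of Slc25a3 by the alternative exon they hold; right, reads of Vdac3 by the length of exon 3 in nt; bars give the percent of reads that span the place in each library and the numbers above them the reads. Exon A takes 720 of 730 and 1082 of 1107 reads, and the unannotated 54-nt exon takes 632 of 652 and 751 of 791.

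No other intron of the members' main transcripts showed such a shift. Of their 38 introns, the other 37 were placed exactly on the annotated sites by at least 99.0% of the reads within 10 nt of them in replicate 1 and at least 99.2% in replicate 2. That holds for the intron after the matching 50-nt exon of Vdac1 and of Vdac2. Over all genes with at least 50 spliced reads, a splice site exactly 1 nt away from an annotated one was carried by most spliced reads in 1 of 2046 genes (0.0489%) in replicate 1 and 1 of 2665 genes (0.0375%) in replicate 2, and in both libraries that gene was Vdac3. With a site 1 to 10 nt away, the counts were 12 genes (0.587%) and 14 genes (0.525%), Vdac3 included. Since Vdac3 was picked with this shift known, these shares describe the background and test nothing.

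As a whole chain, the 9-exon model with the 54-nt exon held 618 reads (92.2% of Vdac3 reads) in replicate 1 and 729 (87.4%) in replicate 2. Vdac3-201 held 18 (2.69%) and 34 (4.08%), and Vdac3-202 held none. The deposited class of the leading Vdac3 model is therefore "unannotated splice site" although 8 of its 9 exons have annotated ends.

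The other members were led by a single annotated transcript. Slc25a4-201 held 84.5% and 84.3% of its gene's reads, Vdac2-201 held 93.7% and 91.9%, and Vdac1-202 held 73.5% and 78.9%. Slc25a5-201 held 47.6% (68 reads) and 31.2% (106 reads). Of the 32 annotated transcripts of the 6 genes, 9 had reads in both libraries and 20 had none in either.

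Vdac1 was the only porin with a second annotated coding transcript above 1% in both libraries. Vdac1-201, which has 8 exons and a coding sequence of 888 nt against 849 nt in Vdac1-202, held 11 reads (2.12%) in replicate 1 and 22 (3.41%) in replicate 2. Its introns are those of Vdac1-202 without the first, so by chain these reads cannot be told apart from Vdac1-202 molecules that lack their 5′ end. Vdac1 also had 2 chains that lacked the 5′ part of Vdac1-202 and kept its last 4 and last 6 exons, at 2.31% to 2.64% and at 1.55% to 3.27% of reads.

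Skipping of an inner exon between annotated splice sites was rare in all 6 genes. The 228-nt exon 7 of Vdac2 was skipped by 3 reads against 275 that held it in replicate 1 (1.08%, 0.368 to 3.12) and by 2 against 345 in replicate 2 (0.576%, 0.158 to 2.08). The only other skips between sites within 10 nt of annotated ones were 1 read over exon 9 of Vdac2 in replicate 2 and 1 read over exon 5 of Vdac3 in replicate 1.

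Slc25a4 was deep enough to show rare unannotated chains in both libraries. A model whose second exon began 6 nt later than annotated held 11 and 19 reads, the most of the kind. Another lacked 70 nt inside exon 2 (chr8:46209207-46209276, all coding), a stretch that starts with GT and ends with AG in transcript sense, and held 7 reads (0.0647%) and 10. A jump from exon 1 into exon 3 (chr8:46208473-46210997, 739 nt of transcript lost, exon 2 included) held 5 and 4 reads, and also starts with GT and ends with AG. In all, 12 spliced Slc25a4 chains occurred in both libraries and took 99.9% of its spliced reads in each.

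Models of a single exon at the 3′ end held a share of the reads that ranged from 0.281% (Vdac2, replicate 2) to 68.5% (Slc25a5, replicate 2). For Slc25a5 these were 75 of 143 reads (52.4%) in replicate 1 and 233 of 340 (68.5%) in replicate 2, all in a 255-nt model of the genomic class, the class for reads that overlap a gene and match none of its splice junctions. That model, at chrX:36798553-36798807, lies wholly within the 266 nt of 3′ UTR in the last exon. Among annotated genes with at least 50 reads, the genomic class held most reads in 1.36% of genes in replicate 1 and 1.94% in replicate 2, and single-exon models of any class did so in 5.26% and 5.52%. Slc25a5 was the only member among them, so that 1 of 6 members passed.

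For Slc25a4 the single-exon share was nearly equal in the libraries while its deposited class was not. Replicate 1 had 1559 reads (14.4%) in an 824-nt model that spans the whole last exon and was classed as an incomplete splice match. Replicate 2 had 2340 reads (14.8%) in a 483-nt model of the genomic class, at chr8:46207138-46207620, which stops 341 nt before the annotated end. Vdac1 showed the same switch, with 70 reads (13.5%) in a 966-nt incomplete splice match in replicate 1 and 60 reads (9.30%) in a 902-nt genomic model in replicate 2. Slc25a3 had 15 (1.96%) and 40 (3.43%) single-exon reads, Vdac2 had 3 (1.06%) and 1 (0.281%), and Vdac3 had 6 (0.896%) and 34 (4.08%).

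**Figure D3:**
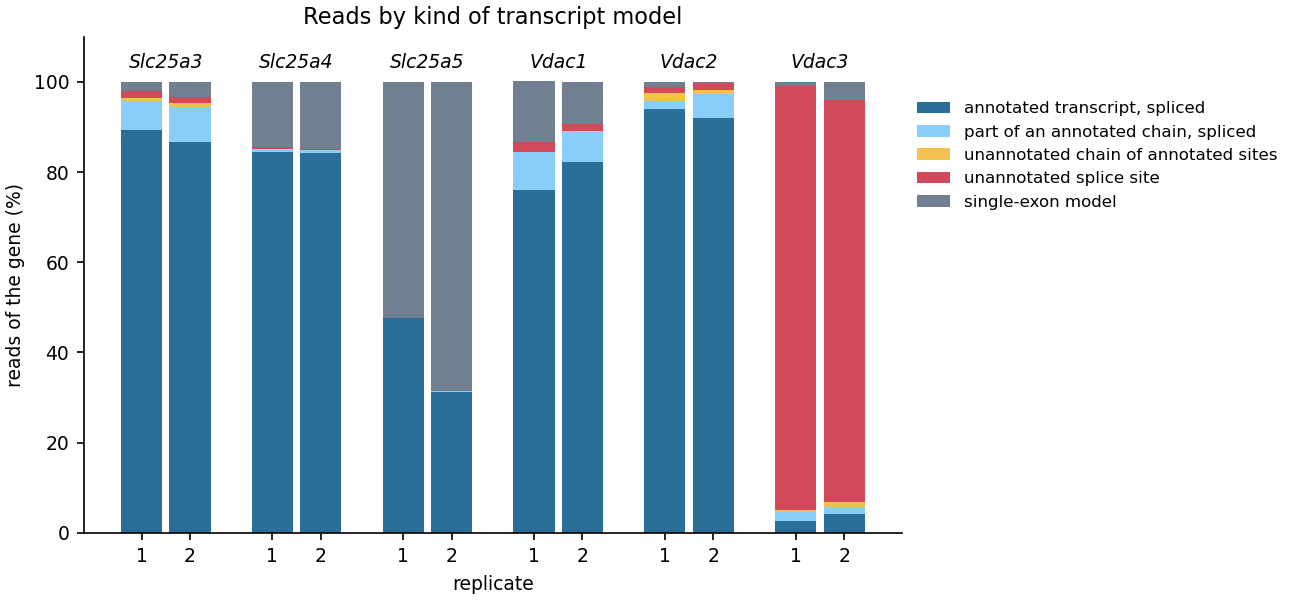
Percent of each gene's reads by kind of transcript model, in a bar for each library. Vdac3 is almost all in models with an unannotated splice site (94.0% and 89.1%), single-exon models fill 52.4% and 68.5% of Slc25a5, and spliced annotated transcripts lead in the other 4 genes.

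In 5 of the 6 genes most reads spliced every intron of the main transcript. All introns of the main transcript were spliced in 94.4% and 93.0% of Vdac2 reads and, allowing the shifted site, in 96.6% and 93.5% of Vdac3 reads. The figures were 89.0% and 85.7% for Slc25a3, 84.7% and 84.6% for Slc25a4, 73.8% and 79.2% for Vdac1 and 47.6% and 31.2% for Slc25a5. In Vdac1 the share of reads with an intron spliced rose from intron 1 (74.0% and 79.8%) to intron 8 (86.3% and 90.2%). In Slc25a4 it moved from 84.8% and 84.6% at intron 1 to 85.6% and 85.2% at intron 3, and in Slc25a5 it was flat, so that the other reads of this pair of genes mostly lacked all 3 introns at once.

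**Figure D4:**
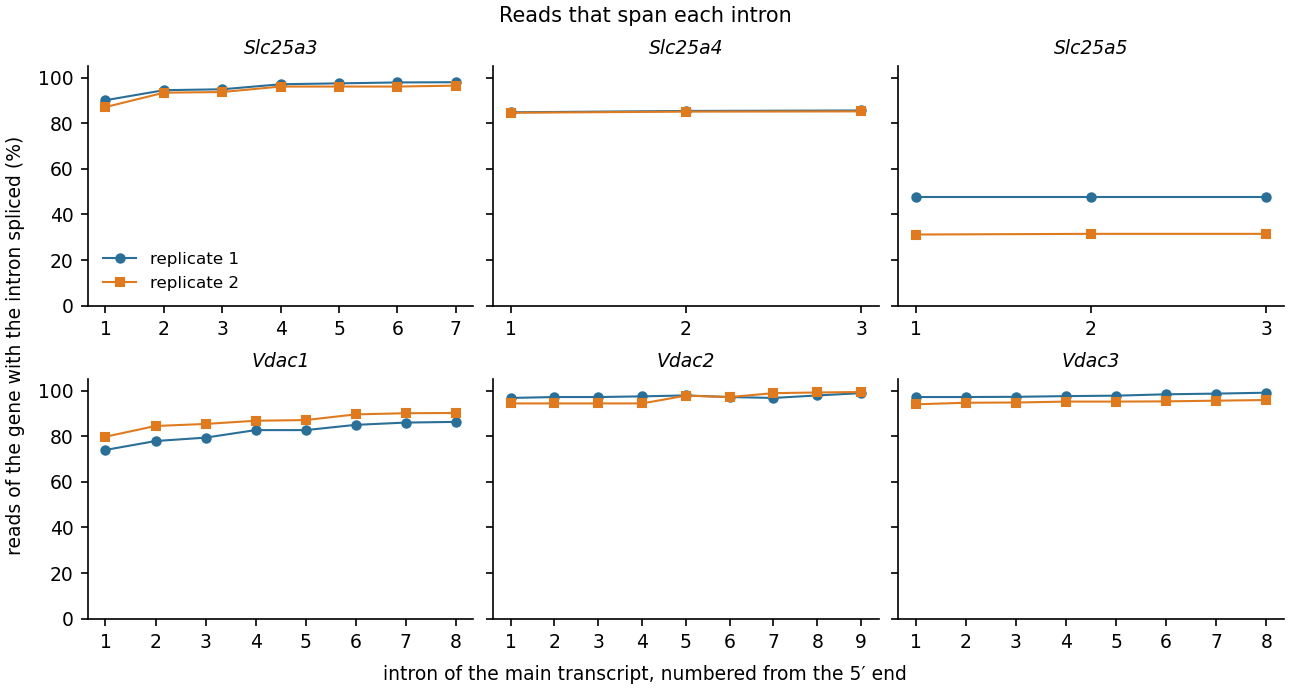
Percent of the gene's reads in which each intron of the main transcript was spliced, with introns numbered from the 5′ end and 1 line for each library. The lines of Slc25a4 lie at about the same height from intron 1 to 3, those of Slc25a5 lie lowest (47.6% in replicate 1), and those of Vdac1 rise toward the 3′ end.

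The 3′ end of an unannotated model was an annotated 3′ end in 64 of 64 models of the members other than Slc25a4 in replicate 1 and 81 of 82 in replicate 2. In Slc25a4 it was so in 2 of 23 models with 1560 of 1680 reads in replicate 1, and in 1 of 20 models with 74 of 2483 reads in replicate 2. The ends of single reads were not analysed here. The end at position 36798807 of chromosome X is the annotated end of Slc25a5-201 and was given to all 75 and 234 reads in its unannotated models. The Slc25a4 end at 46207137 or 46207138 of chromosome 8, which no annotated transcript has, was given to 113 reads in 14 models in replicate 1 and 2391 reads in 8 models in replicate 2.

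Between the libraries, no member passed 2-fold, where 190 of 4294 genes with at least 50 summed reads did (4.42%). The log2 ratio of CPM, replicate 2 over replicate 1, was 0.91 for Slc25a5 (95% counting interval 0.62 to 1.20), 0.27 for Slc25a3 (0.14 to 0.40) and 0.20 for Slc25a4 (0.17 to 0.24). The porins stood at -0.03 (Vdac1), -0.02 (Vdac2) and -0.03 (Vdac3), with intervals that include 0. The median over the members was 0.09, beside 0.11 for all genes tested, and the carriers were above that median and the porins below it. With median-ratio size factors the median of all genes was 0.00, a value that this scaling sets near 0 by construction. The ratios were then 0.803 for Slc25a5, 0.167 for Slc25a3 and 0.102 for Slc25a4. Those of the porins were -0.133 (Vdac1), -0.118 (Vdac2) and -0.128 (Vdac3).

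The Slc25a5 ratio went with its single-exon model. Spliced Slc25a5 reads numbered 68 and 107, or 61.4 and 76.3 CPM, a log2 ratio of 0.31 with an interval of -0.14 to 0.77. Spliced reads gave Slc25a5 0.729% (0.575 to 0.923) of the carrier reads in replicate 1 and 0.789% (0.653 to 0.952) in replicate 2, so the libraries overlap. On that count the level of Slc25a4 was 135.2-fold and 125.2-fold that of Slc25a5, or 87.1-fold and 80.7-fold per kb. For Slc25a4, leaving out genomic models alone turned the ratio to -0.03 (-0.06 to 0.01), since its single-exon reads bear that class in replicate 2 only, and leaving out all single-exon models gave 0.20 again.

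**Figure D5:**
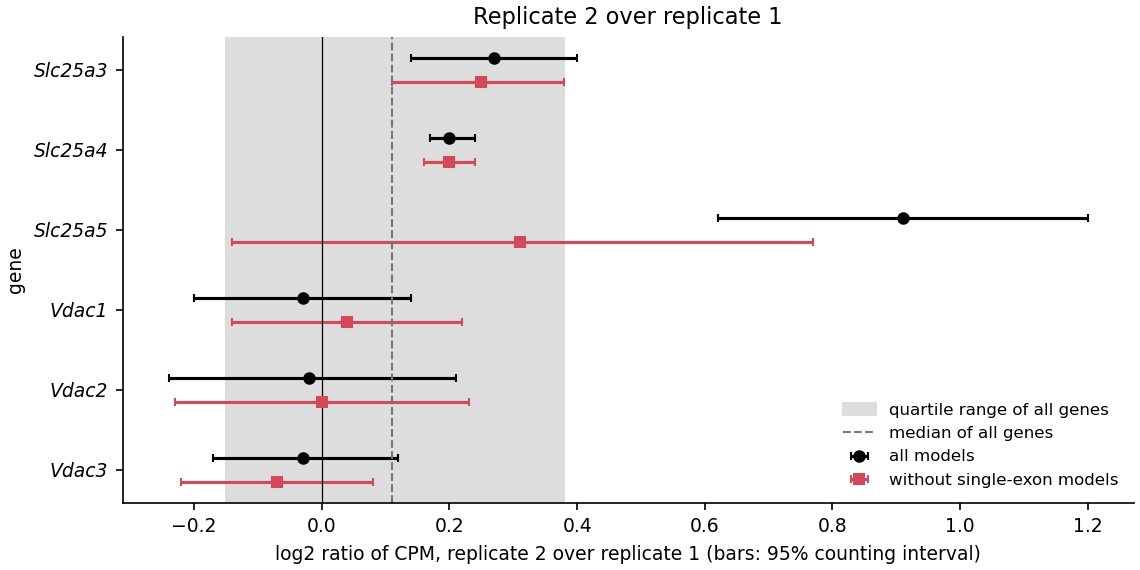
Log2 ratio of CPM, replicate 2 over replicate 1, with 95% counting intervals, for all models (black circles) and without single-exon models (red squares); the dashed line is the median of all genes and the grey band their quartile range. Slc25a5 moves from 0.91 to 0.31 when single-exon models are left out, and the other 5 genes move by less than their intervals.

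Among the other carriers of the SLC25 family, 26 of 49 genes had over 3 reads in both libraries and 8 had none in either. The highest were Slc25a11, the oxoglutarate carrier, at 336.9 and 437.7 CPM, and Slc25a12, the aspartate and glutamate carrier of muscle and brain, at 256.5 and 381.4 CPM. Mtch2 (152.6 and 139.7 CPM) and Mtch1 (135.5 and 149.7 CPM), outer membrane relatives of the family, came next, followed by Ucp3, the uncoupling protein of muscle, at 91.2 and 80.5 CPM and the NAD carrier Slc25a51 at 69.5 and 84.8 CPM. The 49 genes summed to 1541 CPM in replicate 1 and 1870 CPM in replicate 2, against 9775 and 11262 CPM for Slc25a4 alone. Of 28 genes with at least 10 summed reads, 22 (78.6%) were higher in replicate 2, beside 59.8% of all genes, with a median log2 ratio of 0.29 beside 0.12 for all genes at that minimum.

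Of 28 genes that work with the members in ATP transfer or at the mitochondrial membranes, 26 had over 3 reads in both libraries. Ckm, the cytosolic creatine kinase, stood at 73049 and 64202 CPM, and Ak1, the cytosolic adenylate kinase, at 5529 and 4748 CPM. The ATP synthase subunits Atp5b and Atp5a1 stood at 3130 and 4369 CPM and at 2622 and 3131 CPM. Ckmt2, the creatine kinase of the muscle mitochondrion, stood at 1309 and 2175 CPM. The log2 ratios of replicate 2 over replicate 1 were -0.19 for Ckm, -0.22 for Ak1, 0.48 for Atp5b, 0.26 for Atp5a1 and 0.73 for Ckmt2. The median log2 ratio of the list was 0.31, beside 0.12 for all genes at the same minimum of 10 reads. Of the list, 19 of 26 genes (73.1%) were higher in replicate 2, beside 5161 of 8626 of all genes (59.8%), and the 1 gene over 2-fold apart, the calcium uniporter gene Mcu, was lower there on 17 and 8 reads.

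Annotated copies of the members took almost no reads. Searching the annotated transcripts with the main transcripts found 25 copies in other genes with at least 85% identity over at least 100 nt. Slc25a5 had the most, 12 copies at 86.8% to 98.3% identity, followed by Vdac1 with 7, Vdac3 with 3, Slc25a3 with 2, Vdac2 with 1 and Slc25a4 with 0. Only Vdac3-ps1, at 99.2% identity to Vdac3, had reads, 1 in replicate 1 and 4 in replicate 2. Reads given to the wrong copy by the authors' alignment cannot be told apart from these counts.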

How the data were processed

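For each library the authors deposited raw read counts of transcript models, as whole numbers, and the exon coordinates of the models. Per the file headers, models were built by TALON, 1 library at a time, on mouse build mm10 with GENCODE M21 transcripts. The aligner is not given in the sources used here, nor are versions or filters, and these steps can move splice sites, model ends and classes. Reads were summed per gene, spike-in reads left out, and divided by the reads of annotated genes (CPM). Between-gene levels were also divided by the length of the main transcript. That is the coding transcript with the most reads in both libraries. For Vdac3 it is the annotated chain nearest to the model with the most reads. A read that covers a whole molecule counts it once whatever its length, so the division can lower long transcripts and both forms are given. Exons and splice sites were scored from model coordinates. Shares have Wilson 95% intervals, ratios of the libraries an exact binomial interval, with a prior count of 0.5. Chi-square per degree of freedom was 6.21 over 8626 genes, so the libraries were counted separately.

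The members and lists were chosen with earlier results of these data known. Named genes were the members, the 6 other SLC25 genes and the 5 partner genes with the highest mean CPM, genes next to a member in rank, and models with at least 1% of a gene's reads in each library. The 3 rare Slc25a4 chains were chosen after their values were seen. Exon and splice site scores were tried on a few made-up models. The ratio rule was tried on simulated counts with counting error alone, so that trial does not cover the wider spread between these libraries. Endothelium, erythroid, fibroblast, Schwann and smooth muscle markers summed to 15.4 and 31.4, 169.8 and 107.6, 567.2 and 633.7, 52.4 and 49.9, and 27.1 and 30.7 CPM. Tools were Python 3.11.15, pandas 2.3.3, scipy 1.17.1, Biopython 1.88, BLAST+ 2.17.0, R 4.3.3 and edgeR 4.0.16 (TMM factors only).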

Additional observations from a re-analysis of the deposited data

Results flagged for a closer look

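Unannotated models on the strand opposite to a member held more reads than the 3 that a count of 0 allows. For Vdac1 these were 7 reads in 4 models in replicate 1 and 24 reads in 6 models in replicate 2. For Slc25a3 they were 5 and 6 reads, and for Vdac3 6 reads in replicate 2, with 3 in replicate 1. Slc25a4, Slc25a5 and Vdac2 had none in unannotated models, while reads of annotated genes opposite Vdac2 numbered 5 in replicate 1 and 4 in replicate 2. The share of all genes with such opposite-strand models was not counted, so whether these counts are usual was not tested.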

How the results depend on the processing

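The libraries are 2, so each SD rests on 2 values, and exon B of Slc25a3 rests on 4 and 11 reads. No paired analysis was possible because there is a single group. Leaving out either library moved no value past the spread, by construction with n = 2. Of 184 alternative values of 30 results, 108 were counted as staying within 1 SD or the counting interval and 74 as moving further. The 108 include every value with a library left out, where that outcome was fixed in advance. Counts of genes over 2-fold were judged by a fold range instead. The remaining 2 changed sign from a main value larger than its spread. The library ratios of the porins, whose main values lay within their spread, also changed sign under some alternatives and are not among those 2. With annotated transcripts alone, Vdac3 over Vdac1 had a log2 ratio of -4.18 and Vdac3 held 3.23% of porin reads, because its leading model is unannotated. Without genomic models, Slc25a4 had a log2 ratio of -0.0267 between the libraries.

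Vdac3 held 46.2% of porin reads without genomic models, 46.8% without single-exon models (an alternative chosen after seeing the data) and 52.3% with reads divided by model length. Under annotated transcripts, no genomic models, no single-exon models and model length, in that order, Slc25a5 held 0.764%, 0.707%, 0.759% and 6.04% of carrier reads, and the log2 ratio of Slc25a4 over Slc25a5 was 7.01, 7.14, 7.02 and 4.02. The last value of each reflects the 255-nt Slc25a5 model, whose reads weigh most when divided by its length. Slc25a5 had 99.5% of its reads in annotated transcripts without genomic and without single-exon models, and a log2 ratio between the libraries of 0.295, 0.309 and 0.309 under the first 3 settings.

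The members summed to 12785 CPM in the main count, 14972 without Atp2a1 in the total, 10236.5 with annotated transcripts alone, 11039 without single-exon models and 9737 per kb of model. The share of exon A was 99.2% over any model that holds either exon, 99.2% with annotated transcripts, 99.1% for models with at least 2 reads and 98.8% with any overlap. Genes over 2-fold apart numbered 999 with at least 10 summed reads and 53 with at least 200. Of the 190 in the main count 167 were higher in replicate 2 and 23 lower, beside 119 and 34 with median-ratio size factors and 124 and 33 with TMM factors. No member passed 2-fold under either scaling.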
